A study of Rattus norvegicus with 6 samples.

Results

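Regulated exocytosis is the step by which pituitary cells release stored hormone, and the transcripts of its machinery were followed here in rat pituitary organ culture with and without GnRH. The set held 40 genes listed by name for their place in this machinery: SNARE proteins, calcium sensors of the synaptotagmin family, Rab3 and Rab27 GTPases with their effectors, factors that prime, clamp or recycle the fusion complex, and 2 granule membrane glycoproteins. Each gene was represented by the probe set with the highest mean log2 value among those that the array annotation assigned to that symbol alone. On this basis 39 of the 40 were measured, out of 14217 genes with such a probe set, and Stx2 was not analysed here. They had 62 probe sets, with 1 for 21 genes, 2 for 13 genes and 3 for 5 genes.

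Granule fusion depends on SNARE proteins, which sit on the granule and on the plasma membrane and zip into a helical bundle that pulls both membranes together. Synaptotagmins bind calcium and couple its entry to fusion. Rab3 and Rab27 GTPases recruit effectors that dock granules, Munc13 and CAPS proteins make docked granules ready for release, and NSF with its SNAP adaptors takes used SNARE complexes apart. In gonadotropes, which secrete LH and FSH, GnRH (gonadotropin-releasing hormone, a hypothalamic peptide) raises cytosolic calcium and so triggers this machinery.

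The study hybridised 3 arrays from rat pituitary organ cultures given GnRH at 10 nM and 3 from control cultures. The labels used here name no strain, sex or age of the rats, no length of treatment and no vehicle. No label says that the samples of a group came from separate cultures or animals, so the p-values measure the spread between these arrays, which may be technical. The values hold all cell types of the gland together, so that fewer cells of a type and less RNA per cell cannot be told apart.

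The pituitary label was checked on hormone transcripts. On the log2 scale Gh1, growth hormone, lay between 14.09 and 14.18 in GnRH cultures and between 14.20 and 14.25 in controls, and Lhb, the LH beta subunit, between 12.38 and 12.71 in GnRH cultures and between 12.03 and 12.63 in controls. Pomc, the corticotropin precursor, lay between 6.09 and 7.68 in GnRH cultures and between 7.47 and 8.47 in controls; the medians over all probe sets of an array were 6.01 to 6.07. Control 3 stood apart from controls 1 and 2. Xist, which coats the inactive X chromosome of females, lay at log2 values of 9.16 to 9.73 in GnRH cultures and 9.77 in control 3. It was 3.91 in control 1 and 3.66 in control 2, so 2 of 3 controls differed from all other arrays in this sex-linked transcript. The controls thus did not all come from the same material. With all arrays, too, treatment is partly confounded with this difference, as only control 3 shared the high Xist of the GnRH cultures. For that reason, many differences are given below both with all arrays and without control 3, and the plot of differences with and without control 3 has them for every measured member.

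No member of the exocytosis machinery passed the test. Of the 39 members measured, 0 rose and 0 fell at an adjusted p under 0.05 (limma, Benjamini-Hochberg over all 31042 probe sets), while 0.464% of all probe sets and 0.605% of all genes passed. At an unadjusted p under 0.05 there were 5 members, or 12.8%, against 13.2% of all genes. These were Rab3d, Syt7, Unc13a and Stx1a, which lay higher with GnRH, and Rab3b, which lay lower. The adjusted p of the members ran from 0.178 for Stx1a to 0.983 for Cplx2. The log2 fold change was above 0 in 25 members and below 0 in 14, with a median of 0.052 against -0.0089 over all genes. The 95% intervals reflect the spread between these arrays. In 35 of the 39 members, or 89.7%, the interval lay wholly within a 1.5-fold change in either direction, against 91.4% of all genes. The exceptions were Syt7, Rab3b, Rab3c and Rab3d. The intervals treat the 3 controls as replicates, although their Xist differed, so they do not bound how much change with GnRH went unseen. When arrays were weighted by their fit, 5 members passed, against 10.6% of all genes. Rab3d, Syt7, Stx1a and Unc13a were higher and Rab3b lower. Controls 1, 2 and 3 had weights of 0.749, 2.72 and 0.298, and that of control 3 was the smallest. The control side thus rested mostly on controls 1 and 2, with low Xist. Treatment and the Xist difference can hardly be told apart in this fit.

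**Figure D1:**
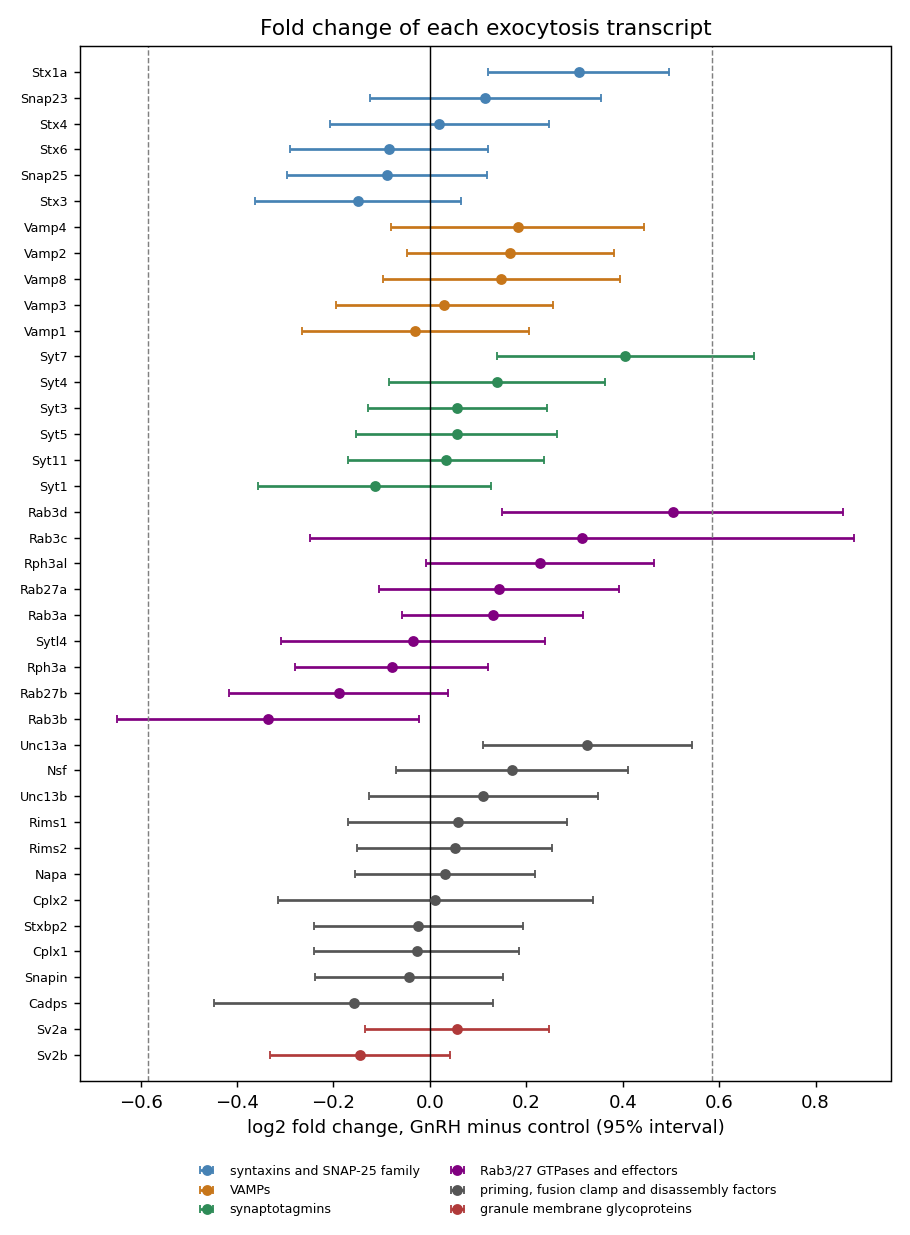
Log2 fold change of the 39 measured members, mean of 3 GnRH arrays minus mean of 3 control arrays, with the 95% interval from limma as bars and the role of each gene in colour. Dashed lines mark a 1.5-fold change. The points run from -0.34 for Rab3b to 0.50 for Rab3d, and the intervals of Syt7, Rab3b, Rab3c and Rab3d cross a dashed line.

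The syntaxins and the SNAP-25 family supply the SNARE helices of the target membrane, and 0 of 6 measured passed the test. Stx1a, the plasma membrane syntaxin of regulated release, had log2 values of 6.88, 6.96 and 6.93 in GnRH cultures and 6.68, 6.54 and 6.61 in controls (probe set 1387360_at). All GnRH arrays lay above all controls, with little spread within either group. The difference was 0.31 ± 0.08 (SE), or 1.24-fold (limma adjusted p = 0.178). It was 0.31 without control 3 as well (limma adjusted p = 0.0586) and 0.31 against control 3 alone. The other, dimmer probe set of Stx1a gave -0.031, so the 2 probe sets did not share a direction. Snap25, which joins syntaxin at the plasma membrane of neurons and endocrine cells, had log2 values of 9.56, 9.60 and 9.68 in GnRH cultures and 9.75, 9.79 and 9.56 in controls. The groups overlapped through control 3, and the difference of -0.089 ± 0.093 had a 95% interval of -0.30 to 0.12; without control 3 it was -0.16. Snap23, its broadly expressed relative, had 7.12, 7.08 and 7.03 in GnRH cultures and 6.78, 6.93 and 7.18 in controls. Controls 1 and 2 lay below the GnRH arrays and control 3 above them, and the difference was 0.12 ± 0.11 (limma adjusted p = 0.702), or 0.22 without control 3. Stx3, a syntaxin of apical and granule fusion, had 6.97, 6.84 and 7.07 in GnRH cultures and 7.08, 7.22 and 7.03 in controls, a difference of -0.15 ± 0.10 between overlapping groups. Stx4, the plasma membrane syntaxin of many cell types, differed by 0.020, and Stx6, which serves the trans-Golgi network, by -0.084. A dimmer Stx6 probe set gave 0.10.

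The VAMPs are the SNAREs carried by the vesicle, and 0 of 5 passed. Vamp2, the synaptobrevin of secretory granules, had log2 values of 8.72, 8.74 and 8.72 in GnRH cultures and 8.65, 8.65 and 8.38 in controls. The GnRH arrays lay above all controls but only narrowly above controls 1 and 2, and the difference was 0.17 ± 0.10, or 1.12-fold (limma adjusted p = 0.516), and 0.079 without control 3. The other Vamp2 probe set gave -0.030. Vamp4, a trans-Golgi SNARE linked to granule maturation, had 7.96, 8.17 and 8.09 in GnRH cultures and 7.70, 7.84 and 8.13 in controls. Vamp8, the endobrevin of endosomes and of granules in exocrine and blood cells, had 8.64, 8.60 and 8.69 in GnRH cultures and 8.35, 8.41 and 8.74 in controls. In both genes controls 1 and 2 lay below all GnRH arrays while control 3 fell among or above them. Vamp4 differed by 0.18 ± 0.12, and by 0.30 without control 3. Its dimmer probe set gave 0.35 (limma adjusted p = 0.464), with controls 1 and 2 again low and control 3 above all GnRH arrays. Vamp8 differed by 0.15 ± 0.11, and by 0.27 without control 3. Vamp3, the broadly expressed cellubrevin, had 8.52, 8.47 and 8.48 in GnRH cultures and 8.34, 8.39 and 8.65 in controls, the same pattern, with a difference of 0.030 ± 0.101, or 0.13 without control 3. Vamp1, the other synaptobrevin, differed by -0.030 between overlapping groups. Of its other probe sets 1 gave -0.14 with all GnRH arrays below all controls, and 1 gave -0.029.

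Among synaptotagmins 0 of 6 passed, and Syt7 had the largest difference. Syt7, a sensor with high affinity for calcium that acts in slow and sustained release, had log2 values of 6.62, 6.63 and 6.53 in GnRH cultures and 6.43, 6.20 and 5.94 in controls (probe set 1369185_a_at). All GnRH arrays lay above all controls, and the controls were spread more widely than the GnRH arrays, with SDs of 0.056 in GnRH cultures and 0.245 in controls (n = 3 each). The difference was 0.41 ± 0.12, or 1.32-fold (limma adjusted p = 0.215). Control 3 was the lowest array, so the difference was 0.28 without it (limma adjusted p = 0.102) and 0.65 against it alone (limma adjusted p = 0.0382). In that last fit, which has a single control assumed to vary like the GnRH arrays, Syt7 was the 1 member called, against 1.27% of all genes. Of the other Syt7 probe sets 1 gave 0.15 with groups that did not overlap, and 1 gave -0.11.

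The other synaptotagmins lay close to their controls. Syt4, a family member that lacks normal calcium binding and is found on granules of endocrine cells, had 9.32, 9.63 and 9.40 in GnRH cultures and 9.25, 9.31 and 9.36 in controls. The groups overlapped in GnRH 1 and control 3, and the difference was 0.14 ± 0.10 on this probe set and 0.16 on the other. Syt1, the fast calcium sensor of synapses, had 6.33, 6.18 and 6.17 in GnRH cultures and 6.38, 6.51 and 6.14 in controls. Controls 1 and 2 lay above the GnRH arrays and control 3 just below them, and the difference was -0.11 ± 0.11 (limma adjusted p = 0.706), or -0.22 without control 3. Syt3, a plasma membrane synaptotagmin, had 7.53, 7.60 and 7.50 in GnRH cultures and 7.52, 7.51 and 7.43 in controls, a difference of 0.057 ± 0.084 between overlapping groups. Its dimmer probe set gave 0.38 ± 0.14 with no overlap between groups (limma adjusted p = 0.320), a larger value than on the brighter probe set. Syt5 differed by 0.056 and Syt11 by 0.034.

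**Figure D2:**
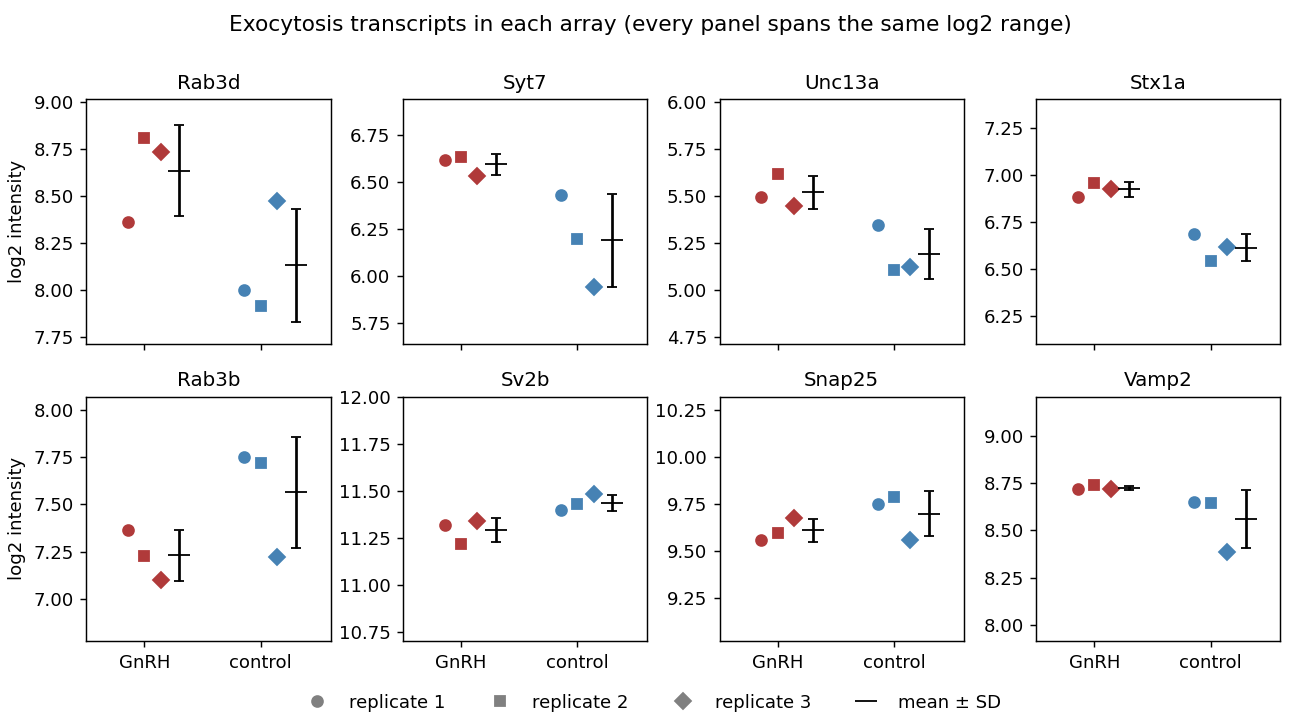
Log2 intensity of 8 members in each array, GnRH left and control right, with the replicate as symbol shape and the mean ± SD of 3 arrays in black; every panel spans the same range. Syt7, Unc13a, Stx1a and Vamp2 have all GnRH arrays above all controls and Sv2b has them below, while control 3 lies within or near the GnRH arrays for Rab3d and Rab3b.

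Rab3 and Rab27 GTPases and their effectors held the members with the largest differences in either direction, although 0 of 9 passed with all arrays. Rab3d, the Rab3 form best known from exocrine and endocrine granules, had log2 values of 8.36, 8.81 and 8.73 in GnRH cultures and 8.00, 7.92 and 8.47 in controls (probe set 1370055_at). Controls 1 and 2 lay below all GnRH arrays, but control 3 exceeded GnRH 1. The difference was 0.50 ± 0.16, or 1.42-fold (95% interval 1.11 to 1.81; limma adjusted p = 0.248). Rab3b, the Rab3 form described as abundant in anterior pituitary cells, had 7.37, 7.23 and 7.10 in GnRH cultures and 7.75, 7.72 and 7.22 in controls (probe set 1370061_at). Here controls 1 and 2 lay above all GnRH arrays and control 3 among them. The difference was -0.34 ± 0.14, or 0.792-fold (limma adjusted p = 0.376).

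These 2 paralogues passed the test once control 3 was left out, in opposite directions. Without that array Rab3d rose by 0.68 ± 0.13 (limma adjusted p = 0.0123) and Rab3b fell by 0.51 ± 0.10 (limma adjusted p = 0.0138). On the 1 probe set used per gene they were the only members called in that fit, 1 of 39 in each direction, against 6.25% of all genes called higher and 2.2% called lower. Over all their probe sets, 6 of 62 passed without control 3, against 7.44% of all 31042 probe sets. The 4 further ones were dimmer probe sets of Vamp4 (0.61, limma adjusted p = 0.0032), Rab27a (0.41 and 0.43, limma adjusted p = 0.0289 and 0.0165) and Cplx1 (-0.38, limma adjusted p = 0.0343). Against control 3 alone the differences were 0.16 for Rab3d and 0.0056 for Rab3b. Leaving out control 3 also left the GnRH arrays, with high Xist, against controls with low Xist, so that treatment and this sex-linked difference cannot be told apart in that fit.

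Rab3a, the synaptic form, had log2 values of 6.78, 6.93 and 6.85 in GnRH cultures and 6.70, 6.71 and 6.76 in controls, a difference of 0.13 ± 0.08 between groups that did not overlap. Rab3c was the most variable member, with 5.65, 5.82 and 5.12 in GnRH cultures and 4.70, 5.12 and 5.83 in controls. Its groups overlapped across most of their range, and its SE of 0.25 was the largest of all members. Rab27a, which docks granules through its effectors, had 8.41, 8.42 and 8.70 in GnRH cultures and 8.24, 8.33 and 8.53 in controls on its brightest probe set. Control 3 overlapped the GnRH arrays, and the difference was 0.14 ± 0.11, or 0.22 without control 3. Its other probe sets gave 0.31 and 0.39, and on the last of these all GnRH arrays (6.76, 6.83 and 6.90) lay above all controls (6.38, 6.42 and 6.50), with the smallest adjusted p among the 62 probe sets of the members (limma adjusted p = 0.0932). Rab27b, its close relative, had 5.08, 5.20 and 5.11 in GnRH cultures and 5.48, 5.14 and 5.34 in controls. The groups overlapped between GnRH 2 and control 2, and the difference was -0.19 ± 0.10 on this probe set and 0.053 on the other.

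Of the effectors of these GTPases, Rph3al had the largest difference. Rph3al, also called Noc2, an effector of Rab3 and Rab27 required for normal secretion from endocrine cells, had 8.13, 8.06 and 8.30 in GnRH cultures and 7.96, 8.09 and 7.77 in controls. The groups overlapped between GnRH 2 and control 2, and the difference was 0.23 ± 0.11, or 1.17-fold (limma adjusted p = 0.426), and 0.15 without control 3. Sytl4, or granuphilin, which tethers granules to syntaxin, differed by -0.036, and by -0.16 without control 3. Rph3a, or rabphilin, differed by -0.079 and had a mean log2 value of 3.82 in GnRH cultures and 3.90 in controls. The file holds no detection calls, so such a dim probe set cannot be called absent.

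Among priming, clamping and recycling factors 0 of 11 passed. Unc13a, a Munc13 protein that opens syntaxin and primes granules, had log2 values of 5.49, 5.62 and 5.45 in GnRH cultures and 5.35, 5.11 and 5.13 in controls (probe set 1369330_at). All GnRH arrays lay above all controls, and the difference was 0.33 ± 0.10, or 1.25-fold (limma adjusted p = 0.220). It was 0.29 without control 3 and 0.39 against it alone. Unc13b, its broadly expressed relative, had 6.52, 6.37 and 6.35 in GnRH cultures and 6.51, 6.19 and 6.21 in controls, a difference of 0.11 ± 0.11 between overlapping groups. Cadps, or CAPS, which primes dense-core granules, had 6.96, 7.13 and 7.13 in GnRH cultures and 7.22, 7.51 and 6.97 in controls. Control 3 lay with the GnRH arrays, and the difference was -0.16 ± 0.13, or -0.29 without control 3.

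Nsf, the ATPase that separates spent SNARE complexes, had 7.68, 7.87 and 8.03 in GnRH cultures and 7.77, 7.57 and 7.72 in controls on its brightest probe set, a difference of 0.17 ± 0.11. Its other 2 probe sets gave 0.21 and 0.23, each with all GnRH arrays above all controls (limma adjusted p = 0.347 and 0.382). Napa, the SNAP adaptor that brings NSF to the complex, differed by 0.032 ± 0.084, with 8.74, 8.75 and 8.86 in GnRH cultures and 8.76, 8.71 and 8.79 in controls. Its 95% interval, -0.15 to 0.22, was among the narrowest. The active zone scaffolds Rims1 and Rims2 differed by 0.058 and 0.052. The Munc18 protein Stxbp2 differed by -0.024, the SNAP-25 partner Snapin by -0.043, and the complexins Cplx1 and Cplx2, which clamp partly assembled SNARE complexes, by -0.028 and 0.012. A dimmer Cplx1 probe set gave -0.29 ± 0.10 with all GnRH arrays below all controls (limma adjusted p = 0.302).

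Of the granule and synaptic vesicle glycoproteins of the SV2 family, 0 of 2 passed. Sv2b had log2 values of 11.32, 11.22 and 11.34 in GnRH cultures and 11.40, 11.43 and 11.48 in controls. On the probe set used for each gene, it was the sole member whose GnRH arrays all lay below all controls, by a small margin. The difference was -0.14 ± 0.08, or 0.905-fold (limma adjusted p = 0.519). Its other probe sets gave -0.087 and -0.19. Sv2a had 6.21, 6.07 and 6.20 in GnRH cultures and 6.05, 6.11 and 6.14 in controls, a difference of 0.056 ± 0.086.

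Members whose groups did not overlap were set beside the share over all genes. All GnRH arrays lay above all controls in 5 of 39 members, or 12.8%, against 8.65% of all genes, and below them in 1, or 2.56%, against 8.62% of all genes. The 5 were Stx1a, Vamp2, Syt7, Rab3a and Unc13a. Of the 23 further probe sets of the members, 17 ran in the same direction as the one used, and 0 of all 62 passed the test.

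**Figure D3:**
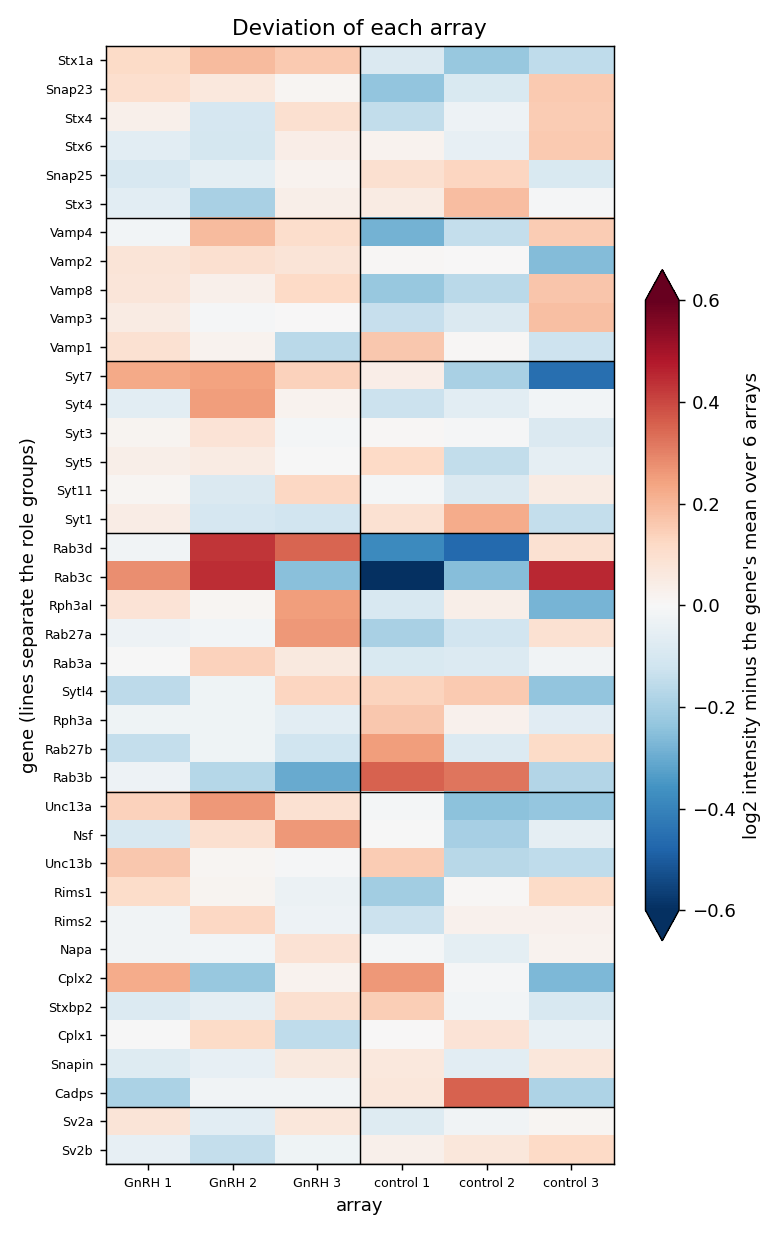
Log2 intensity of each measured member (rows, by role) in each array (columns, GnRH left, control right) minus that gene's mean over the 6 arrays; red is above and blue below the mean. Rab3d, Rab3b, Rab3c and Syt7 show wide contrasts, and control 3 often differs in colour from controls 1 and 2.

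In 17 members control 3 lay closer to the mean of the GnRH arrays than controls 1 and 2 did, or 43.6%, against 43.5% of all genes. The median difference of the members from GnRH was 0.066 without control 3 and 0.030 against control 3 alone. The plot of differences with and without control 3 shows members near one another on both bases, such as Nsf, with 0.19 without control 3 and 0.14 against it, and Rab27b, with -0.18 and -0.21. Rab3c moved most, with a difference of 0.62 without control 3 (limma adjusted p = 0.0674) and -0.30 against it alone.

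**Figure D4:**
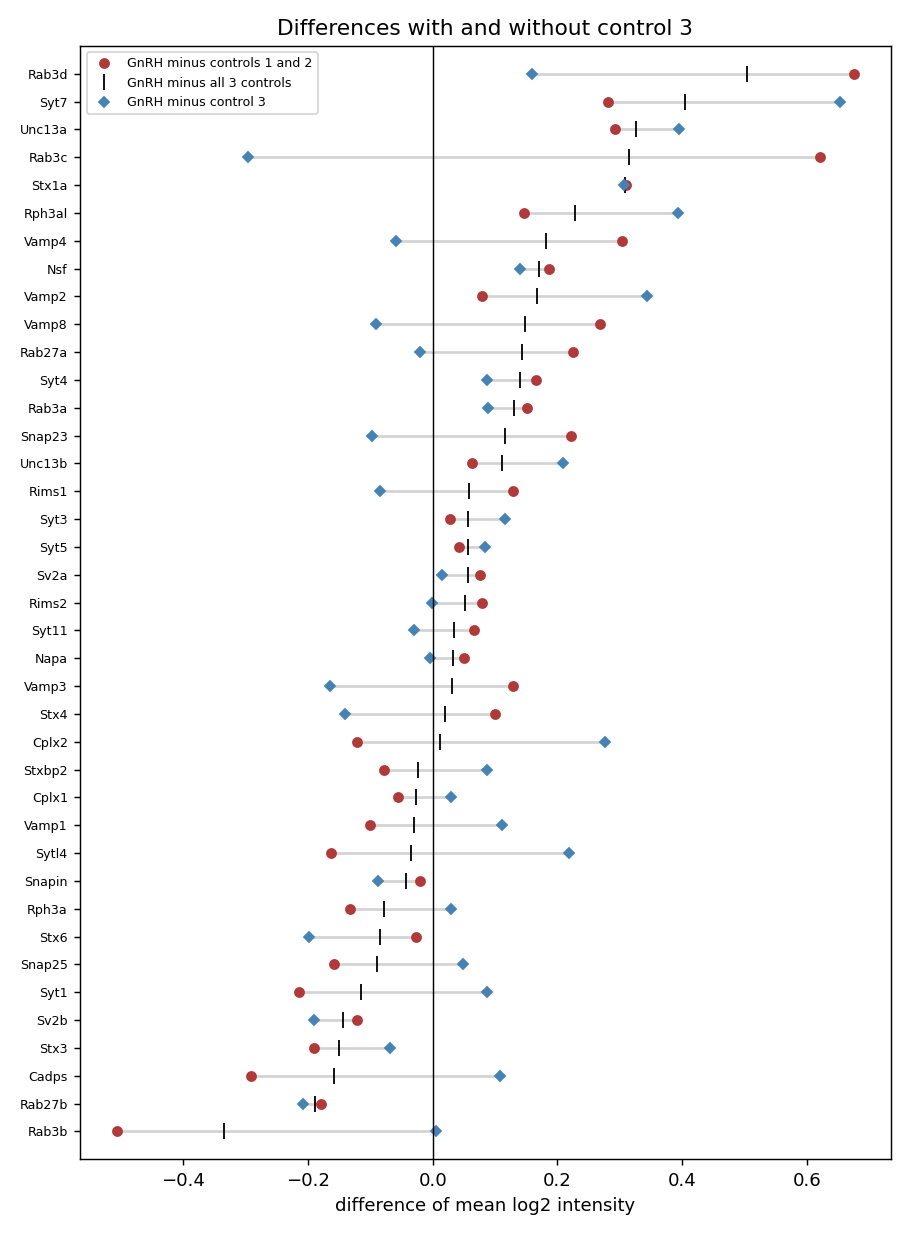
Difference of mean log2 intensity between the 3 GnRH arrays and controls 1 and 2 (red circles), all 3 controls (black bars) or control 3 alone (blue diamonds), for the 39 measured members. For Rab3d it is 0.68 without control 3 and 0.16 against control 3, and for Stx1a all marks lie at 0.31.

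The upstream sequences of the 4 members below are shown because they had the smallest unadjusted p-values, apart from Syt7, and because Rab3d and Rab3b are paralogues that lay on opposite sides of their controls. Each is the 250 bases before the gene's start from RefSeq on build GRCr8, read 5′ to 3′ on the gene's strand. Capitals mark GC boxes (GGGCGG) and half-sites of the cyclic AMP response element (TGACG), each on either strand. The sequence of Rab3d lies at chr8:28725268-28725517 on the minus strand, that of Rab3b at chr5:128858841-128859090 on the plus strand, that of Stx1a at chr12:27306472-27306721 on the minus strand and that of Unc13a at chr16:18415787-18416036 on the minus strand.
Rab3d: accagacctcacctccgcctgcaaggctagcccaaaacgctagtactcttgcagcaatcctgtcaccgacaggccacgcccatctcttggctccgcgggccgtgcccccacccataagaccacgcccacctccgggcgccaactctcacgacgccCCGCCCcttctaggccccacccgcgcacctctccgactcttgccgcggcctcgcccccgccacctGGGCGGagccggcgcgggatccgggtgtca
Rab3b: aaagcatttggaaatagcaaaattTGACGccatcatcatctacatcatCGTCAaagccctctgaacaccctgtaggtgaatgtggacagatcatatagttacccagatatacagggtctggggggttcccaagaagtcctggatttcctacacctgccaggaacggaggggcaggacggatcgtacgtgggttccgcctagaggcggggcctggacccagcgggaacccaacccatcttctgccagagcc
Stx1a: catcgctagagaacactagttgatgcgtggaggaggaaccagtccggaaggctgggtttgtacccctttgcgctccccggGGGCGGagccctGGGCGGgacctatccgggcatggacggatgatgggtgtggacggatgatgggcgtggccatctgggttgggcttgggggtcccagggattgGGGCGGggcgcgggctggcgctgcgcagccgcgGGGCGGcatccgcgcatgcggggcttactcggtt
Unc13a: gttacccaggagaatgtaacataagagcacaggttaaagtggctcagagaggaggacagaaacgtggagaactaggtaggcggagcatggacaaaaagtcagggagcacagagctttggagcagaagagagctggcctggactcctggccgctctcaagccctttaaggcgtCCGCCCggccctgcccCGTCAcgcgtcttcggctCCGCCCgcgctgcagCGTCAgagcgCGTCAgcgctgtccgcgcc

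The Rab3d sequence was 70.0% G and C and held 2 GC boxes and no half-site, beginning 95 and 30 bases before the start. The Rab3b sequence was 53.6% G and C and held no GC box, with 2 half-sites beginning 226 and 202 bases before the start. Stx1a had 4 GC boxes and no half-site, and Unc13a had both, with 2 GC boxes and 3 half-sites. RefSeq windows were matched for 33 of the 39 measured members; those of Snap25, Vamp3, Syt5, Syt7, Rims2 and Snapin were not used here. A GC box stood in 22 of the 33, or 66.7%, against 32.4% of 27457 RefSeq windows of this length and 54.2% of the 11733 that belong to genes on the array. The half-site stood in 11 of 33, or 33.3%, against 19.0% of all windows and 25.8% of those of array genes. The full cyclic AMP response element (TGACGTCA), which contains the half-site, stood in Napa and Vamp1, or 6.06%, against 1.70% of all windows and 2.64% of those of array genes. Of the motifs bound by factors active in gonadotropes, the EGR1 site (GCGTGGGCG) stood in Vamp2 alone, against 0.514% of all windows and 0.912% of those of array genes. The AP-1 site (TGANTCA) stood in Rab27b alone, against 6.36% and 4.84% on the same bases, and the SF-1 site (CAAGGTCA) in 0 of 33, against 1.30% and 0.861%. The E-box (CACGTG) stood in 4 of 33, or 12.1%, against 5.79% of all windows and 7.82% of those of array genes, and the TATA box (TATAAA) in 0 of 33, against 13.1% and 8.06%. These are matches of letters, searched on both strands, and not measured binding.

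Further genes of the secretory pathway showed the same lack of calls. A wider list of 119 genes (other SNAREs, calcium sensors, Rab proteins and their regulators, priming factors, exocyst subunits and vesicle membrane proteins) had 101 measured, of which 0 rose and 0 fell and 16, or 15.8%, had an unadjusted p under 0.05, against 13.2% of all genes. The median log2 fold change was 0.012. The smallest p-value belonged to Syt6, a synaptotagmin known from the sperm acrosome, with 6.39, 6.51 and 6.17 in GnRH cultures and 5.76, 5.63 and 6.11 in controls. Its groups did not overlap, and the difference was 0.52 ± 0.13 (limma adjusted p = 0.152). Syngr2, a synaptogyrin of vesicle membranes, had 9.03, 9.10 and 9.10 in GnRH cultures and 8.53, 8.67 and 8.87 in controls, a difference of 0.39 ± 0.10 (limma adjusted p = 0.156). The values of both genes were higher in every GnRH array than in any control. Doc2g, a relative of calcium-binding Doc2 proteins, had 6.29, 6.33 and 6.44 in GnRH cultures and 6.73, 6.68 and 6.57 in controls, a difference of -0.31 ± 0.09 (limma adjusted p = 0.209). Chm, the escort protein that presents Rab proteins for lipid attachment, had 6.28, 6.49 and 6.20 in GnRH cultures and 6.63, 6.62 and 6.56 in controls, a difference of -0.28 ± 0.10 (limma adjusted p = 0.290). In these genes all GnRH arrays lay below all controls.

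Bet1, a SNARE of transport from the endoplasmic reticulum to the Golgi, had 8.37, 8.77 and 8.44 in GnRH cultures and 7.69, 7.64 and 8.44 in controls. Scfd1, the partner of syntaxins in the same step, had 8.50, 8.55 and 8.63 in GnRH cultures and 7.93, 7.99 and 8.52 in controls. In both genes controls 1 and 2 lay well below the GnRH arrays and control 3 within their range, with differences of 0.60 ± 0.20 and 0.41 ± 0.14 (limma adjusted p = 0.261 and 0.292). Without control 3, 14 of the 101 passed, 13 higher and 1 lower, against the 6.25% and 2.2% of all genes given above. By subgroup these were 3 of 18 other SNAREs (Bet1, Sec22b and Stx5) and 2 of 12 calcium sensors (Syt6 and, lower, Doc2g). They also held 3 of 25 Rab proteins and regulators (Rab26, Madd and Rabac1) and 4 of 18 vesicle membrane proteins (Syp, Sypl1, Syngr2 and Scamp2). The 17 genes listed under priming and disassembly gave 2 (Scfd1 and Tmed10), and the 11 exocyst and Ral genes gave 0. Not every gene so listed acts in priming or disassembly. The 13 ran from 0.35 for Scamp2 to 0.86 for Bet1, and Doc2g was at -0.35. Against control 3 alone 0 of the 101 passed, and the 14 differed by -0.49 for Sypl1 to 0.25 for Syt6.

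Marker lists of the cell types in the gland were set beside these values. The summed linear intensity of 4 of 6 corticotrope and melanotrope markers measured (Pomc, Pcsk2, Tbx19 and Neurod1) was 311 to 502 in GnRH cultures and 448 to 749 in controls, and 0 of the 4 passed the test. That of 5 of 6 markers of posterior lobe pituicytes and glia was 315 to 477 in GnRH cultures and 552 to 782 in controls, with no overlap between groups, and 0 of the 5 passed. Gfap, the glial filament protein, made the largest difference there, at -1.97 ± 0.42 (limma adjusted p = 0.0835). Col25a1 differed by -1.10 (limma adjusted p = 0.0689), Mbp by -0.11, Rax by -0.051 and Aqp4 by 0.050. The probe sets of Col25a1, Rax and Aqp4 were dim, below the array medians. Col25a1 had log2 values of 2.86 to 3.71 in GnRH cultures and 4.11 to 4.86 in controls. The sum of 9 neuronal and nerve terminal markers was 1073 to 1341 in GnRH cultures and 1139 to 1180 in controls. Only Slc17a6, a vesicular glutamate transporter, was called, higher by 0.68 ± 0.11 (limma adjusted p = 0.0292). The uncalled markers lay on both sides. Avp (-0.57), Oxt (-0.43), Elavl3 (-0.045) and Gad2 (-0.037) were lower, and Nefl (0.45), Nefh (0.12), Nefm (0.094) and Gad1 (0.085) higher. The gonadotrope list had 2 of 5 called, both higher. They were the GnRH receptor Gnrhr at 1.12 ± 0.17 and Nr5a1 at 0.54 ± 0.10 (limma adjusted p = 0.0215 and 0.0471). Lhb (0.34), Cga (0.18) and Fshb (-0.30) were not called. The sum of this list was 14646 to 18129 in GnRH cultures and 12965 to 16579 in controls. The lactotrope list had 1 of 3 called, the dopamine receptor Drd2, which was higher. Its sum was 18641 to 19351 in GnRH cultures and 14774 to 18421 in controls, also with no overlap between groups. The highest control sum was that of control 3. Prl, by far the brightest of the 3 and so most of the sum, differed by 0.24 and was not called. Against control 3 alone Prl differed by 0.036. Esr1 (0.32) was not called either. The sum of 5 of 6 endothelial markers was 843 to 963 in GnRH cultures and 767 to 840 in controls. These groups did not overlap either, and 0 of the 5 passed. Plvap made the largest difference there, at 0.40. Esam differed by 0.051, Pecam1 by -0.0002, Kdr by -0.023 and Tek by -0.050. No marker of the remaining lists passed, for somatotropes, thyrotropes, folliculostellate and stem-like cells, leukocytes or fibroblasts. Those counts are for all arrays, in which 4 of 56 markers passed, against 0.605% of all genes. Without control 3, 12 of 56 passed, 8 higher and 4 lower, against 6.25% of all genes higher and 2.2% lower. That fit set GnRH arrays with high Xist against controls with low Xist, so treatment and this difference cannot be told apart for these markers either. The 8 added by leaving it out were Pou1f1 (0.76), Prl (0.33), Trhr (0.60) and Lhb (0.53), which lay higher in GnRH cultures, and Tshb (-0.84), Gfap (-1.80), Col25a1 (-0.90) and Dcn (-0.85), which lay lower. These 8 passed in the same fit that called Rab3d, Rab3b and 14 genes of the wider list. Several of their lists held uncalled markers on both sides in that fit. For somatotropes, Gh1 (-0.094) and Dlk1 (-0.29) lay lower and Ghrhr (0.050) higher. For fibroblasts, Col1a2 (0.43) and Col3a1 (0.28) lay higher and Lum (-0.59) lower. For gonadotropes, Fshb (-0.58) lay lower and Cga (0.28) higher. The part of these cell types in the exocytosis values was not tested.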

How the data were processed

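The values analysed were 1-colour array intensities on a linear scale, 1 deposited value per probe set and sample, made with RMA per the submitters' processing notes. No label used here gives a version or a filter. Total RNA was extracted, cleaned on a column and labelled with biotin, per the labels' protocols. The table held 31042 probe sets and 6 arrays, with 0 missing values. Of the probe sets, 20826 had 1 gene symbol in the array annotation, 436 several and 9780 were not listed; only the first kind was named. The number of arrays limits the precision. The table gives no background signal or detection call.

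The log2 of each intensity was taken without a pseudocount. Groups followed the sample titles. The test of GnRH against control was limma's (version 3.58.1, R 4.3.3; lmFit, then eBayes, 2-sided), run on every probe set without filter or covariate, with Benjamini-Hochberg adjustment across the whole table. The script was tested on simulated data with 31042 probe sets. It called 26 of 50 simulated log2 differences of 0.58, 48 of 50 at 1 and all 50 at 1.5 and at 2, with 12 false calls. Smaller differences were not simulated, and the largest among the members was 0.50. A count of 0 members called therefore does not show that changes of that size were absent. The members, the wider gene list and the markers were chosen with earlier results of these data known. Every member was placed in its role group; values in every array are given for the 4 members of each group with the smallest p-values and for the brightest one, and of the wider list for the 6 with the smallest p-values. Further members and markers with single values, such as Rab3a, Rab3c and Gfap, were singled out after their values were seen. Alternatives covered scaling, a filter on dim probe sets, variance models, array weights, a replicate block, arrays left out and the choice of probe set.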

Additional observations from a re-analysis of the deposited data

How the results depend on the processing

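The count of 0 members past the threshold held with median centring, repeated quantile normalization, cyclic loess, dim probe sets left out (32 members left), an intensity trend, robust variances, the replicate block, gene means, the most variable probe set, and without any array other than control 3; it was 5 with array weights, and 0 to 2 over the 6 leave-one-out fits, the 2 (Rab3d and Rab3b) coming without control 3. Against control 3 alone it was 1 (Syt7). Array weights called Stx1a, Syt7, Rab3d and Unc13a higher and Rab3b lower. They gave control 3 the lowest weight, 0.298, and control 2 the highest, 2.72. The wider list had 16 of 101 genes past the threshold with array weights, where 10.6% of all genes passed, and 0 to 14 without 1 array, the 14 without control 3. Over all probe sets the count of 144 became 90 with quantile normalization, 93 with cyclic loess, 3020 with array weights, 265 against control 3 alone and 20 to 2309 without 1 array: 51, 20 and 65 without GnRH 1, 2 and 3, and 69, 28 and 2309 without control 1, 2 and 3. The median log2 fold change of the members was 0.022 with quantile normalization and 0.030 to 0.069 otherwise. The replicate block, taken from the numbers in the titles, changed no call of a member and gave 215 probe sets; same-numbered deviations correlated at 0.159, -0.049 and 0.156 for numbers 1, 2 and 3, so the numbers are not treated as pairs.

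Some uncalled differences turned sign. With quantile normalization Vamp3 was -0.034 and Napa -0.052, and with cyclic loess -0.018 and -0.022. Without 1 array, Napa ran from -0.0043 (without GnRH 3) to 0.051, and Vamp3 from -0.031 (without control 1; -0.0066 without control 2) to 0.128. Against control 3 alone, Snap25 was 0.049, Snap23 -0.098, Vamp3 -0.17, Vamp4 -0.060, Vamp8 -0.092, Syt1 0.087, Rab3b 0.0056, Rab27a -0.020, Cadps 0.11 and Napa -0.0043. With the most variable probe set Vamp2 was -0.030. The cause was not tested. With 3 arrays a group, the SE of a member's log2 fold change ran from 0.084 to 0.25.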
